A study of Homo sapiens with 4 samples.

Results

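The mRNAs of the translation factor eIF5A, of the enzymes that hypusinate it and of the polyamine pathway that feeds them were followed in A549 cells, an established human lung adenocarcinoma line, after transfection of either strand of pre-*miR-486*. The group held 10 genes of the 22439 that could be named on the arrays, and all 10 were measured, by 13 probes. The genes were chosen by name for their place in this pathway, and they were selected with the differences between these same arrays in view, so their values are a description and carry no test. Probes were assigned to a gene through their RefSeq accession, with control spots left out. The genes were *EIF5A*, *EIF5A2*, *DHPS*, *DOHH*, *ODC1*, *AZIN1*, *SRM*, *SMS*, *SAT1* and *PAOX*.

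There were 4 samples, each on 1 one-color Agilent array. A549 cells were transfected with *miR-486-5p* for 1 sample and with *miR-486-3p* for another, and for the remaining 2, mock 1 and mock 2, A549 cells received the transfection reagent (Lipofectamine RNAiMAX) without a miRNA. All cells were thus exposed to the reagent. No array of cells given a control miRNA was analysed here, so the response to *miR-486* and the response to any small RNA cannot be told apart. The time from transfection to RNA extraction for the arrays is not given in the sources used here.

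Hypusine is an amino acid found in eIF5A and formed after translation. The polyamine spermidine donates an aminobutyl group to 1 lysine of eIF5A through deoxyhypusine synthase (*DHPS*), and deoxyhypusine hydroxylase (*DOHH*) then completes the residue. Hypusinated eIF5A binds the ribosome and helps it through sequences at which peptide bonds form slowly, such as runs of proline, and it aids termination. Spermidine is made from ornithine by way of putrescine, and rapidly dividing cells, tumor cells among them, hold high levels of polyamines. *ODC1* and *SRM* are textbook targets of the transcription factor MYC, which binds the E-box CACGTG together with MAX.

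The promoters of these genes were searched for that E-box, because values of *MYC* and its partners are given further on. RefSeq promoter windows of 300 bases (250 before the transcript start and 50 after it, GRCh38.p14) were at hand for 8 of the 10 genes, in 14 windows. The motif CACGTG, which reads the same on both strands, was in at least 1 window of 4 of these 8 genes: *SRM*, *ODC1*, *EIF5A2* and *DOHH*. Of all 27305 genes with a window, 8.77% held it, and of all 35116 windows 7.26%. A match is a description of these letters and does not show that a factor binds there. The 4 matches whose surroundings lie wholly upstream of the start are printed, 5′ to 3′ on the strand of the gene, with the E-box in capitals:
SRM, E-box starting at -199, chr1:11060200-11060229, minus strand: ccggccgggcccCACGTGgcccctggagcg
ODC1, E-box starting at -29, chr2:10448024-10448053, minus strand: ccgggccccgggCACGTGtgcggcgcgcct
EIF5A2, E-box starting at -187, chr3:170908807-170908836, minus strand: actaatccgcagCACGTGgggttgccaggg
EIF5A2, E-box starting at -162, chr3:170908782-170908811, minus strand: cagggcgctcttCACGTGactgggcggagc
*ODC1* held another match at position 6 of its transcript, and *DOHH* one at -9. The windows of *EIF5A*, *DHPS*, *SMS* and *SAT1* held none.

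Each array carried 58201 probes, of which 30693 to 31516 were well above background, and no spot was saturated. A level below is the log2 of the background-corrected signal minus the log2 of the array's 75th percentile of that signal, which was 93.1 to 114. Levels can be compared between arrays for 1 probe, but not between probes. A difference is the level on a transfected array minus the mean of both mock arrays, averaged over the probes where a gene had more than 1. The number of arrays limits the precision: each strand has 1 array, and the mock arrays, which nothing in the labels says came from separate cultures, differed by more than 0.5 in 1.88% of 15558 genes. The SD of that difference was 0.168. The epithelial keratins *KRT7* (3.81 to 4.18) and *KRT18* (5.51 to 6.09) were well above background on all 4 arrays, *CDH1* on none, and *EPCAM* was not on the *miR-486-3p* array. Of the markers of other cell types, the array medians were -3.76 to -3.28 for leukocytes, -5.16 to -4.38 for endothelium and -5.44 to -4.97 for fibroblasts.

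After *miR-486-5p*, 2 of the 10 genes lay below -0.5, *ODC1* and *SRM*, and none lay above 0.5. Over all genes with a value, 15.9% were below -0.5 and 13.8% above 0.5. The median of the 10 differences was -0.042, with a range of -0.85 to 0.365, beside a median of 0.030 over all genes. After *miR-486-3p*, 6 of the 10 lay below -0.5 (*SRM*, *EIF5A*, *SAT1*, *PAOX*, *SMS* and *AZIN1*) and again none lay above 0.5, where 27.2% of all genes were below and 30.5% above. The median of the 10 was -0.74, with a range of -3.10 to 0.14, beside 0.058 over all genes. The genes were picked with these differences known, so nothing is read from their counts beside the percentages. The values just past the limit of -0.5 were those of *SRM* after *miR-486-5p* and *AZIN1* after *miR-486-3p*, both -0.56, and the one just within it was that of *PAOX* after *miR-486-5p*, -0.39. Both strands are set against the same mock arrays, so the differences of the strands are not independent of each other.

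**Figure D1:**
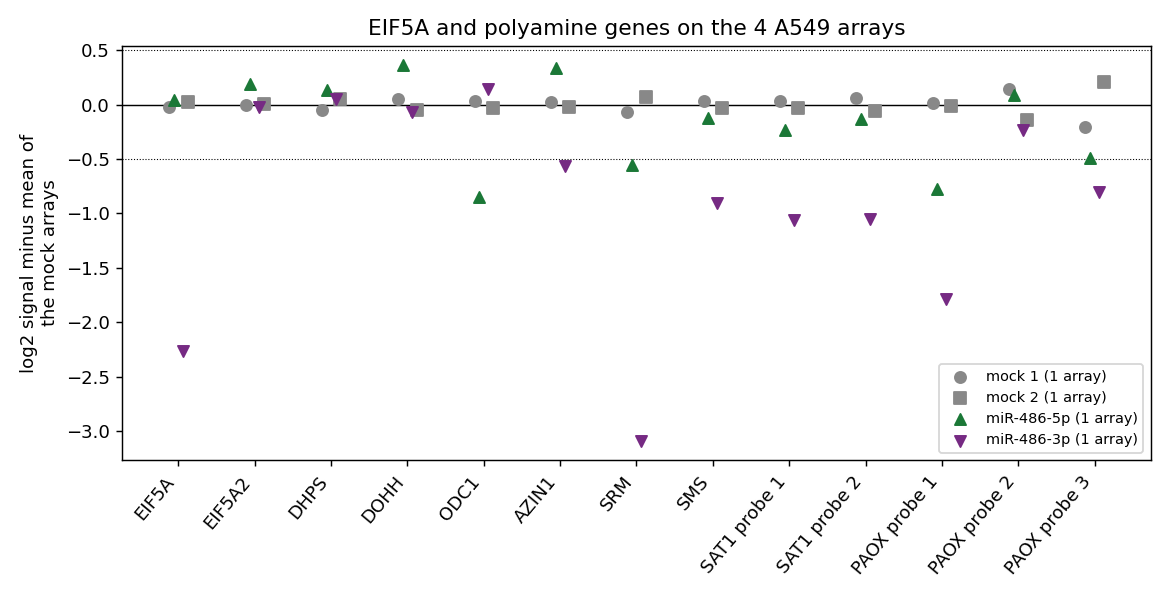
Level of each of the 13 probes on each of the 4 arrays, as log2 signal minus the mean of the mock arrays (vertical axis), by gene and probe (horizontal axis). Each marker is 1 array and dotted lines mark -0.5 and 0.5. On the *miR-486-3p* array *EIF5A* (-2.27) and *SRM* (-3.10) are the lowest, and on the *miR-486-5p* array *ODC1* (-0.85).

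*EIF5A*, the factor itself, was at about a level of 4.7 on 3 of the arrays and far below it on the fourth. Its probe read 4.71 on the *miR-486-5p* array, 2.40 on the *miR-486-3p* array, 4.65 on mock 1 and 4.69 on mock 2. The *miR-486-3p* array alone was low. The mock mean was 4.67 ± 0.033 (SD, n = 2), the difference after *miR-486-5p* was 0.038, smaller than the 0.047 between the mock arrays, and the difference after *miR-486-3p* was -2.27. The signal after *miR-486-3p* was thus 20.8% of the mock signal, and 339 of the 16419 genes with a value, or 2.06%, had a lower difference. In the deposited log2 table, the differences of this probe were 0.06 and -2.12. The processed copy *EIF5AL1*, whose sequence is nearly that of *EIF5A*, read -0.98, -1.51, -1.08 and -0.83 on the *miR-486-5p*, *miR-486-3p*, mock 1 and mock 2 arrays, and whether the probes tell the copies apart was not tested.

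*EIF5A2* encodes the second human eIF5A, which is hypusinated in the same way and whose gene is amplified in some tumors. It read 0.21 after *miR-486-5p*, 0.0041 after *miR-486-3p*, 0.019 on mock 1 and 0.027 on mock 2. The *miR-486-5p* array was thus the highest by 0.19, or 114% of the mock signal, and the *miR-486-3p* array lay just under both mock arrays, at a difference of -0.019. Unlike the *EIF5A* probe, this one had no array that stood far apart.

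Both enzymes that make hypusine were within 0.5 of the mock arrays after each strand. *DHPS*, which transfers the aminobutyl group, read 1.83 after *miR-486-5p*, 1.75 after *miR-486-3p*, 1.65 on mock 1 and 1.74 on mock 2. Its differences were 0.13 and 0.052, and the second was smaller than the 0.096 between the mock arrays. *DOHH*, the hydroxylase, read 1.28 after *miR-486-5p*, 0.85 after *miR-486-3p*, 0.96 on mock 1 and 0.87 on mock 2. The *miR-486-5p* array was the highest, at 129% of the mock signal, a difference of 0.365 and the largest positive one of the 10 genes after this strand. After *miR-486-3p*, *DOHH* differed by -0.069, again less than the mock arrays did from each other (0.092).

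*ODC1* encodes ornithine decarboxylase, the short-lived enzyme that makes putrescine and limits the pathway. It read 5.73 after *miR-486-5p*, 6.72 after *miR-486-3p*, 6.61 on mock 1 and 6.54 on mock 2. The *miR-486-5p* array was the low one and the other 3 lay close together. The difference was -0.85 after *miR-486-5p*, or 55.6% of the mock signal, with 6.89% of genes lower, and 0.14 after *miR-486-3p*, or 110% of it. The *miR-486-3p* array lay 0.99 above the *miR-486-5p* array, so *ODC1* and *EIF5A* were low on different arrays. In the deposited log2 table the differences of *ODC1* were -0.83 and 0.39.

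*AZIN1*, the antizyme inhibitor, resembles ornithine decarboxylase without its activity and frees the enzyme from antizyme. It read 4.0 after *miR-486-5p*, 3.10 after *miR-486-3p*, 3.68 on mock 1 and 3.64 on mock 2. The transfected arrays lay on opposite sides of the mock arrays, at differences of 0.34 and -0.56, which are 126% and 67.7% of the mock signal. The lower one passed -0.5 narrowly and lay at -0.38 in the deposited log2 table.

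*SRM*, spermidine synthase, turns putrescine into the spermidine that hypusination uses, and it was the gene of the 10 with the lowest value after *miR-486-3p*. It read 3.09 after *miR-486-5p*, 0.56 after *miR-486-3p*, 3.58 on mock 1 and 3.72 on mock 2. Both transfected arrays lay below both mock arrays, by far more for *miR-486-3p*. From a mock mean of 3.65 ± 0.10 (SD, n = 2), the differences were -0.56 and -3.10, which left 67.9% and 11.7% of the mock signal. Only 78 genes, 0.475% of those with a value, had a lower difference after *miR-486-3p*, while 13.7% had one after *miR-486-5p*. The deposited log2 table gave -0.51 and -3.01. Against mock 2 the *miR-486-5p* difference was -0.63 and against mock 1 it was -0.49, so the place of *SRM* below -0.5 after this strand rested on the choice of mock array.

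*SMS*, spermine synthase, takes the next step from spermidine to spermine. It read 5.61 after *miR-486-5p*, 4.83 after *miR-486-3p*, 5.77 on mock 1 and 5.70 on mock 2. Both transfected arrays lay below both mock arrays, at -0.12 and -0.91, or 91.9% and 53.3% of the mock signal. Of the synthases that lengthen the polyamine chain, each thus had its lowest level on the *miR-486-3p* array, with the larger difference for *SRM*.

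*SAT1* encodes spermidine/spermine N1-acetyltransferase, the enzyme that acetylates polyamines for export or breakdown. Its first probe read 3.53 after *miR-486-5p*, 2.70 after *miR-486-3p*, 3.79 on mock 1 and 3.73 on mock 2. Its second probe read 2.61, 1.68, 2.79 and 2.68 on the same arrays. Both probes put the *miR-486-3p* array lowest, at -1.06 each, and the *miR-486-5p* array next, at -0.23 and -0.13. Averaged, *SAT1* differed by -0.18 after *miR-486-5p* and by -1.06 after *miR-486-3p*.

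*PAOX*, peroxisomal N1-acetyl-spermine/spermidine oxidase, oxidizes the acetylated polyamines back to shorter ones, and its 3 probes, which are listed under different transcripts, did not read alike. The first (NM_152911) was at 0.40 after *miR-486-5p*, -0.62 after *miR-486-3p*, 1.18 on mock 1 and 1.16 on mock 2. The second (NM_207127) was at -2.39, -2.71, -2.33 and -2.62 on the same arrays, so that *miR-486-5p* lay between the mock arrays and *miR-486-3p* just below the lower one. The last (NM_207128) was at -3.29, -3.60, -3.01 and -2.59. The differences of the probes, in that order, were -0.77, 0.084 and -0.50 after *miR-486-5p* and -1.79, -0.23 and -0.81 after *miR-486-3p*, and the mean differences were -0.39 and -0.94. The local background of the first probe was an outlier by the scanner software's flag on both mock arrays and after *miR-486-3p*, and without those spots *PAOX* differed by -0.21 and -0.52. The second and the last probe differed between the mock arrays by 0.29 and 0.42, more than any probe of the other 9 genes did. They were also dim, with signals of 7.65 to 22.7 over the 4 arrays, against 60.5 to 258 for the first probe. The mean differences give each probe the same weight.

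**Figure D2:**
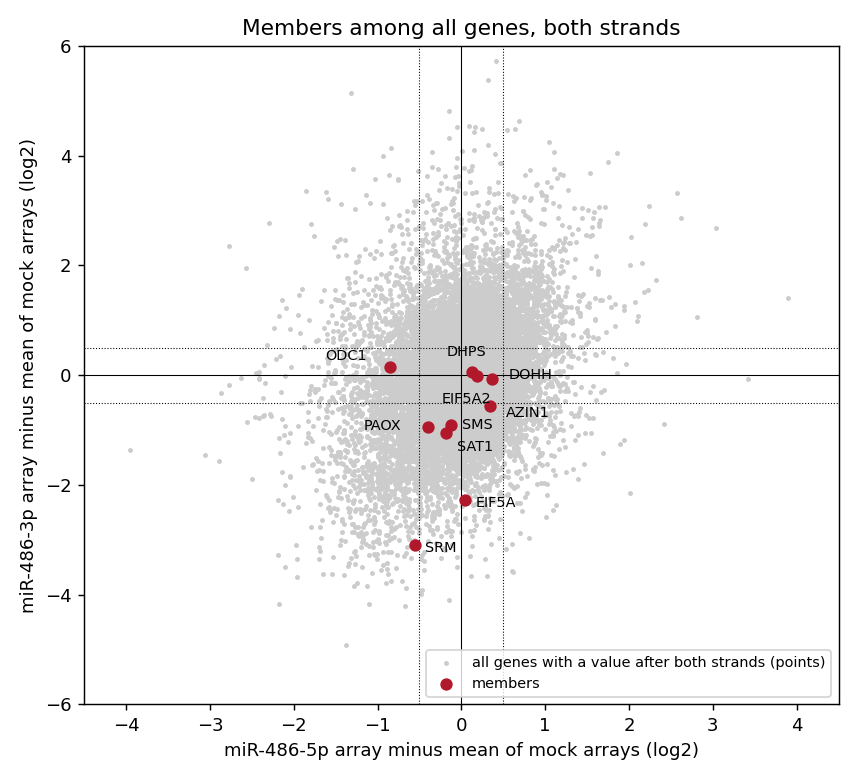
Difference from the mock mean after *miR-486-5p* (horizontal axis, log2) and after *miR-486-3p* (vertical axis, log2) for every gene with a value (grey points) and the 10 genes (red, named). Dotted lines mark -0.5 and 0.5. *EIF5A* lies near 0 on the horizontal axis (0.038) and at -2.27 on the vertical, *ODC1* at -0.85 and 0.14, and *SRM* at -0.56 and -3.10.

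Between the transfected arrays themselves, 9 of the 10 genes were lower on the *miR-486-3p* array than on the *miR-486-5p* array, and *ODC1* was higher. This count was not made over all genes, so nothing is read from it. It also moved with the processing, since on the deposited log2 values *DHPS* differed by 0.125 after *miR-486-5p* and by 0.135 after *miR-486-3p*. The difference (*miR-486-3p* minus *miR-486-5p*) was -2.54 for *SRM* and -2.31 for *EIF5A*, between -0.90 and -0.43 for *AZIN1*, *SAT1*, *SMS*, *PAOX* and *DOHH*, -0.21 for *EIF5A2* and -0.079 for *DHPS*. Of the 13 probes, 7 read below both mock arrays after *miR-486-5p*, 5 above both and 1 between them. After *miR-486-3p*, 11 read below both and 2 above both, those of *DHPS* and *ODC1*. On that array the *DHPS* probe lay narrowly above mock 2 (1.747 and 1.743), and the *EIF5A2* probe narrowly below mock 1 (0.0041 and 0.019). The same counts were not made over all probes, so nothing is read from them.

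The scale on which the arrays are brought together moved these values. When each array's median was subtracted in place of its 75th percentile, the median of all genes went from 0.030 to -0.047 after *miR-486-5p* and from 0.058 to -0.32 after *miR-486-3p*. Under that scaling *ODC1* and *DHPS* after *miR-486-3p* came to -0.23 and -0.32, which are on the other side of 0 but close to the median of all genes, and *EIF5A* after *miR-486-5p* came to -0.038. *EIF5A* after *miR-486-3p* ranged from -2.64 to -2.01 over the 11 settings tried, and *SRM* from -3.47 to -2.58. *ODC1* after *miR-486-5p* ranged from -0.92 to -0.75 and was below -0.5 in all 11. *SRM* after *miR-486-5p* was below it in 9, *AZIN1* after *miR-486-3p* in 8 and *PAOX* after *miR-486-3p* in 10. Some settings could not move most of these values. Either change of the filter on dim probes left every gene as it was. Taking the brightest probe moved only *SAT1* and *PAOX*, and leaving out flagged backgrounds moved only *PAOX*.

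**Figure D3:**
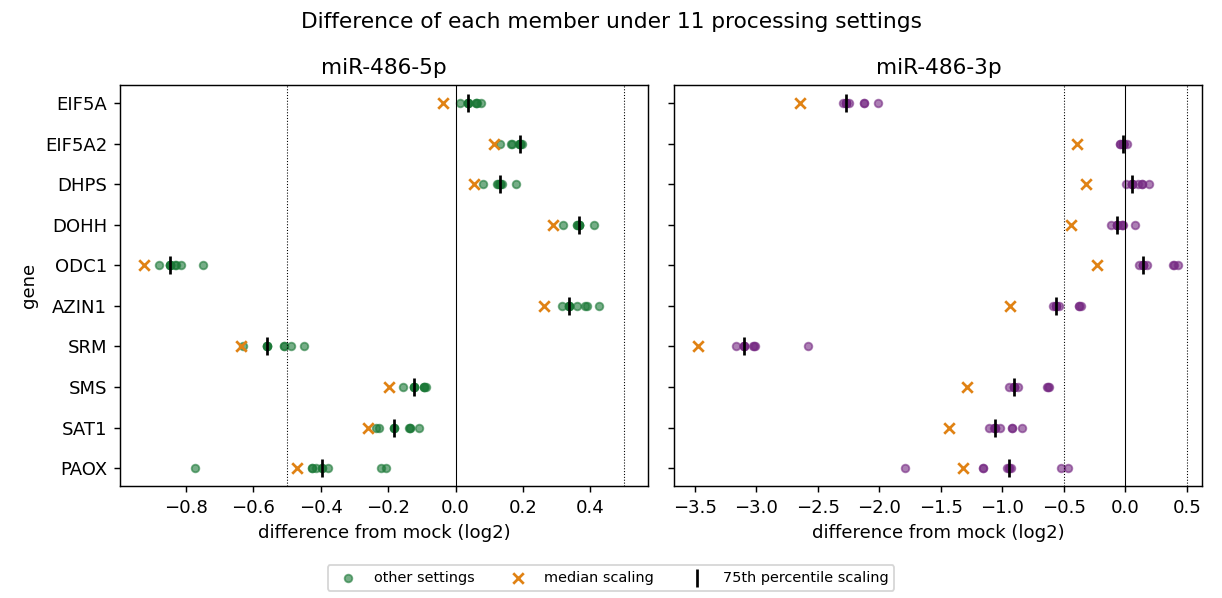
Difference from the mock mean (horizontal axis, log2) of each of the 10 genes (vertical axis) after *miR-486-5p* (left) and *miR-486-3p* (right) under 11 processing settings. The bar is the value reported (75th percentile scaling), the cross the value under median scaling and each dot another setting. *EIF5A* and *SRM* stay at or below -2.01 and -2.58 after *miR-486-3p*, while *DHPS*, *DOHH*, *EIF5A2* and *ODC1* fall on both sides of 0.

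The genes with the most similar values over the 4 arrays were looked for among 13471 genes measured above background on every array, by Euclidean distance between levels from which the mock mean had been subtracted. For *EIF5A* they were *LRFN4* (distance 0.059, differences 0.049 and -2.33), *ZBTB7B* (0.075) and *PPIL1* (0.076). For *ODC1* they were *LOC100132077* (0.036), *ULK4* (0.055) and *CANX* (0.063, differences -0.85 and 0.18). With 4 arrays, of which 2 are mock, such a likeness amounts to similar differences after each strand.

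The genes around the pathway, 70 in 7 lists, were described by limma calls at a Benjamini-Hochberg adjusted p of 0.05 over the whole array, in which the spread comes from the mock pair alone and is taken to hold for the transfected arrays too. A gene is said to have risen or fallen where at least 1 of its probes was called, and its value is the mean over its probes. Of the 62 that could be tested, 2 fell and 2 rose after *miR-486-5p*, where the shares of all 16662 genes tested were 6.64% called lower and 3.56% called higher. With *miR-486-3p*, 22 fell and 16 rose, where 30.9% of all genes were called lower and 31.3% higher. These shares over all genes are the ones to set beside the counts of each list below and of the reference genes. The median differences of the 7 lists together were -0.024 and -0.086. Under median scaling the split after *miR-486-3p* was 33 lower and 9 higher, and over all genes 7466 lower and 3310 higher instead of 5156 and 5216. For *miR-486-5p* the count of 4 called genes ranged from 0 to 32 over the settings, with 0 on the deposited log2 values and without a filter on dim probes. Without limma's shared variance estimate, the count was 0 for both strands.

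Among the other genes of polyamine synthesis and its control, 1 of 8 tested fell and 3 rose after *miR-486-3p*, and none was called after *miR-486-5p*. *AMD1*, S-adenosylmethionine decarboxylase, supplies the aminopropyl group that *SRM* and *SMS* use. It read 3.05 after *miR-486-5p*, 2.70 after *miR-486-3p*, 3.71 on mock 1 and 3.64 on mock 2, and it fell by 0.97 after *miR-486-3p* (limma adjusted p = 0.011, the lower of its 2 probes), with -0.62 after *miR-486-5p* not passing (0.056). The antizymes bind ornithine decarboxylase and send it for degradation. *OAZ1*, named for its bright signal on the mock arrays, did not pass after either strand (-0.19 and 0.40), whereas *OAZ2* (1.25) and *OAZ3* (1.47) rose after *miR-486-3p*. *AZIN2*, the second antizyme inhibitor, rose by 0.75 after *miR-486-3p*, opposite in sign to the value of *AZIN1* on that array, and was at -0.71 after *miR-486-5p*, which did not pass.

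Of 10 tested genes of polyamine breakdown and transport, 6 fell and none rose after *miR-486-3p*, with a list median of -0.59. Over all genes, 30.9% were called lower and 31.3% higher after that strand. *SMOX*, spermine oxidase, was the only gene of this list called after *miR-486-5p*. It read 0.14 after *miR-486-5p*, 1.00 after *miR-486-3p*, 1.40 on mock 1 and 1.49 on mock 2, so both strands lay below both mock arrays, at -1.30 and -0.44 (limma adjusted p = 0.048 and 0.049). The *miR-486-5p* call was lost on the deposited log2 values. *SLC7A1*, a transporter of arginine and ornithine, fell by 2.15 after *miR-486-3p*, and its relative *SLC7A2* fell by 1.16 there. *SLC3A2*, the heavy chain of several amino acid transporters, fell by 1.02 after the same strand, and *SLC18B1*, a vesicular polyamine transporter, fell by 0.74.

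Methylthioadenosine is the by-product of *SRM* and *SMS*, and the salvage pathway turns it back into methionine. Of the 8 genes of that pathway and of S-adenosylmethionine synthesis, 3 fell and 2 rose after *miR-486-3p*, and none was called after *miR-486-5p*. *MTAP*, the phosphorylase that opens the salvage, fell by 1.22 on the mean of 3 probes, all of which passed. *ENOPH1* fell by 1.51 and *GOT1*, a transaminase, fell by 1.67. The 2 probes of *ADI1* were called in opposite directions.

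Of the 5 genes that copy or handle eIF5A, 2 fell and 1 rose after *miR-486-3p*. *KAT2B*, an acetyltransferase that acts on eIF5A, rose by 0.99. The deacetylases that remove that acetyl group also passed, *HDAC6* at -0.70 and *SIRT2* at -1.41. None of the 5 was called after *miR-486-5p*.

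**Figure D4:**
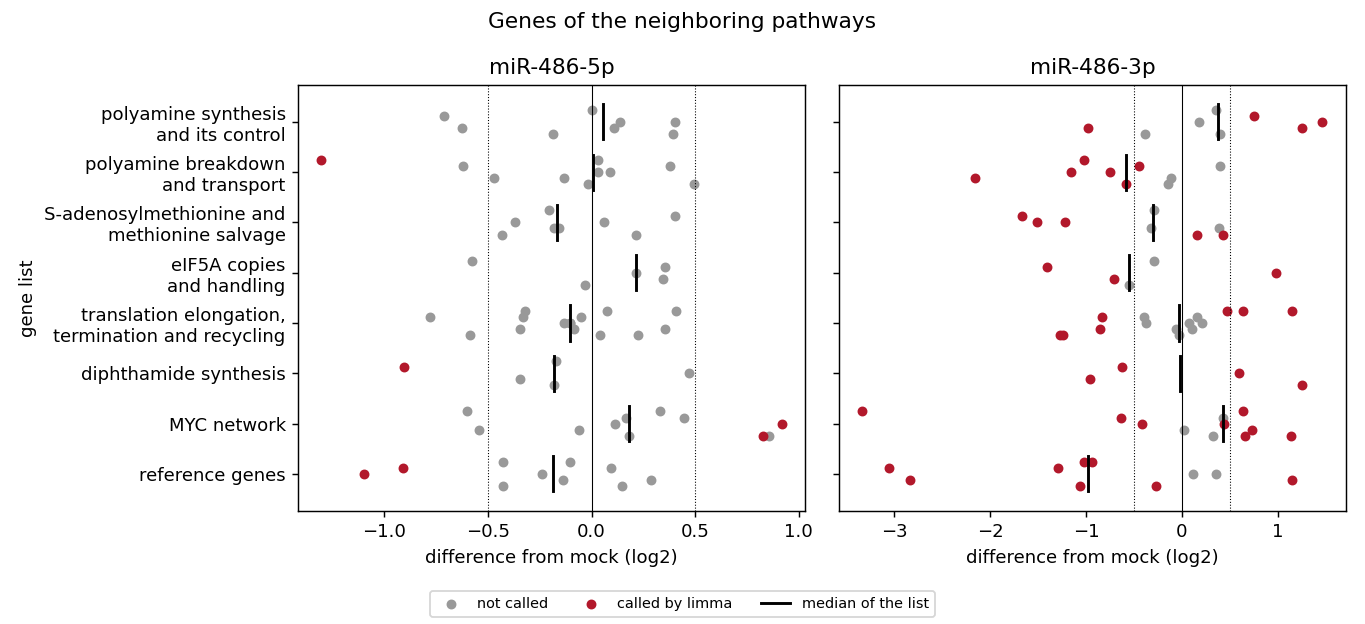
Difference from the mock mean (horizontal axis, log2) of each gene of the 7 lists and of 10 reference genes (vertical axis, by list) after *miR-486-5p* (left) and *miR-486-3p* (right). Red genes were called by limma, grey ones were not, and the black bar is the median of the list. Lists hold genes on both sides of 0 after *miR-486-3p*. In polyamine breakdown and transport the differences after *miR-486-3p* ran from -2.15 to 0.40. Their median was -0.59, beside 0.058 over all genes. The lists were chosen with earlier results of these data known.

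In the translation list, 4 of 15 genes fell and 3 rose after *miR-486-3p*, with a list median of -0.023. *EEF1G* (-0.057) and *EEF1B2* (-0.40), subunits of the exchange factor that recharges elongation factor 1A and named for their bright signals on the mock arrays, did not pass. *EEF1E1*, which belongs to the aminoacyl-tRNA synthetase complex, fell by 1.27. *ABCE1*, which recycles ribosomes after termination, fell by 1.24, and *EIF6*, which keeps the large ribosomal subunit apart from the small one, fell by 0.85. *EIF5*, which despite its name is a partner of the initiation factor eIF2 and not a form of eIF5A, rose by 1.15. None of the 15 was called after *miR-486-5p*.

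Diphthamide is another modified residue of a translation factor, elongation factor 2. Of the 5 tested genes that make it, 3 fell and 2 rose after *miR-486-3p*. *DPH5*, a methyltransferase, was called lower after both strands, each with 1 array. It read 0.97 after *miR-486-5p*, 1.25 after *miR-486-3p*, 1.87 on mock 1 and 1.87 on mock 2, which are differences of -0.90 and -0.62 (limma adjusted p = 0.048 and 0.022). As for *SMOX*, the *miR-486-5p* call was lost on the deposited log2 values and without the filter on dim probes. *DPH2* fell by 0.96 after *miR-486-3p*, and *DPH3* (0.59) and *DNAJC24* (1.25) rose.

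*MYC* itself read 4.35 after *miR-486-5p*, 1.62 after *miR-486-3p*, 5.04 on mock 1 and 4.86 on mock 2. Both transfected arrays lay below both mock arrays. The difference was -3.33 after *miR-486-3p* (limma adjusted p = 0.0076) and -0.60 after *miR-486-5p*, which did not pass (0.083). *MAX*, its partner at the E-box, rose by 1.14 after *miR-486-3p*, and of the MAX partners that oppose MYC, *MXD1* rose by 0.83 after *miR-486-5p* and by 0.66 after *miR-486-3p*, and *MNT* rose by 0.64 after *miR-486-3p*. *MXD3*, of the same kind, was at 0.73 after *miR-486-3p* and is counted as higher, but its 2 probes were called in opposite directions. *MLX*, which pairs with another branch of the network, rose by 0.92 after *miR-486-5p* and fell by 0.41 after *miR-486-3p*. The calls of *MXD1* and *MLX* after *miR-486-5p* were lost on the deposited log2 values. Of the 11 genes tested, 2 rose and none fell after *miR-486-5p*, and 5 rose and 3 fell after *miR-486-3p*. Among the 4 genes with the E-box in a promoter window, the *miR-486-3p* array differed by -3.10 for *SRM*, 0.14 for *ODC1*, -0.019 for *EIF5A2* and -0.069 for *DOHH*, and the *miR-486-5p* array by -0.56, -0.85, 0.19 and 0.365 in that order. Under median scaling the *miR-486-3p* values of the same genes were -3.47, -0.23, -0.39 and -0.44.

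Genes often used as references moved on these arrays as well. After *miR-486-3p*, limma called 7 of 10 lower and 1 higher, and after *miR-486-5p* it called 2 lower. *GAPDH* differed by -0.24 after *miR-486-5p* and by 0.36 after *miR-486-3p*, neither of which passed. On the *miR-486-3p* array the median difference of the reference genes was -0.98, among the values of *SMS* (-0.91), *PAOX* (-0.94) and *SAT1* (-1.06). *RPLP0* (-2.84) and *TUBB* (-3.05) were lower there than *EIF5A* (-2.27), and *SRM* (-3.10) was lower than both. *B2M*, at 1.15, was the gene called higher. *PPIA*, at -0.27, is counted as lower, but its probes were called in opposite directions. The values of the 10 genes followed here were not scaled to any reference gene.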

How the data were processed

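RNA of 4 A549 samples was measured on one-color Agilent arrays. Per the file headers, Agilent Feature Extraction 12.1.1.1 produced the deposited intensity of every spot, already corrected for background, and flags for signal above background, saturation and outliers (other values), for a design annotated on hg19. A table of log2 values deposited by the authors covers the same arrays, and its normalization is not given in the sources used here. The median was 2.76 on each array, 14.1% to 14.6% of its values were 0, and it correlated with the scanner's log2 signal (Pearson r of 0.9996 to 0.9999, across probes), so its scale is log2 and its direction that of the signal. For *EIF5A* and *ODC1* after *miR-486-3p*, the deposited table gave the same rounded differences as quantile normalization, -2.12 and 0.39. These settings are thus near to each other and not separate checks. Groups were taken from the sample labels.

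The log2 intensity minus each array's 75th percentile was used, without 50 to 72 outlier spots per array, and spots of a probe were averaged. Probes well above background in the array of a strand, or in each mock array, entered its comparison, and a dim side was raised to the lowest signal above background, which gives a bound. All 13 probes of the 10 genes were above background on all 4 arrays. Of 33080 probes with a RefSeq accession, 31104 were matched to genes through a GRCh38.p14 table used for names only. limma 3.58.1 (R 4.3.3; lmFit, eBayes, 3 groups) was fitted to 33498 probes with 1 residual degree of freedom. A gene was called if at least 1 of its probes was called, in the direction of the mean over its called probes. limma was run on data simulated from its own fitted spread, which cannot show whether that spread holds for the transfected arrays. In the last run enough probes were changed for the adjusted p to be reachable. All arrays lay on 1 slide.

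The 10 genes, the lists and the tests were chosen with earlier results of these data known. All 10 genes were named; from the lists, the 4 largest differences past 0.5 among the called genes per list and strand and the 2 brightest genes on the mock arrays, with *EIF5AL1*, *GAPDH* and the cell type markers added; and the 3 genes nearest to *EIF5A* and to *ODC1*. Alternatives were leaving out each mock array, median scaling, quantile normalization, the deposited log2 values and normexp. The last was run with an offset of 50 on the median spot signal and was followed by quantile normalization. Further alternatives were no filter or a stricter one, the brightest probe, a limit of 1, an intensity trend and the methods' t-test. Leaving out spots with an outlying local background was added after seeing the data.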

Additional observations from a re-analysis of the deposited data

How the results depend on the processing

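The number of the 10 genes past 0.5 after *miR-486-5p* was 2, and it became 1 under normexp, 0 at a limit of 1 and 3 with the brightest probe of each gene. Leaving out 1 mock array gave 1 to 2, with 1 when mock 2 was left out. After *miR-486-3p* it was 6, with 3 at a limit of 1, 4 under normexp, 5 under quantile normalization and on the deposited log2 values, and 6 without either mock array. None of them lay above 0.5 under any setting.

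Of the list genes, limma called 4 after *miR-486-5p*. The count was 11 under median scaling, 7 under quantile normalization, 15 under normexp, 22 with probes above background on all 4 arrays and 32 with an intensity trend. It was 0 on the deposited log2 values, 0 without a filter and 0 by the methods' t-test, where 31, 36 and 21 genes had an unadjusted p below 0.05. After *miR-486-3p* it was 38, with 0 by the methods' t-test (29 at an unadjusted p below 0.05) and 32 to 49 otherwise. Over all genes, 1700 were called after *miR-486-5p*, 3419 under median scaling, 3647 under normexp, 5727 with the stricter filter, 7761 with a trend, and 0 on the deposited values (7998 unadjusted), without a filter (9219) and by the t-test (4344). After *miR-486-3p* 10372 were called, and 0 by the t-test (7033). At a limit of 1, 739 genes were lower with *miR-486-5p*, and 2312 with *miR-486-3p*.

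No paired analysis was possible because the strands have 1 array each, so that fewer than 2 replicate numbers are shared with the mock arrays. limma without 1 mock array has no residual degree of freedom and gave no value, and a slide block could not be fitted. One array a strand limits every value, and the second and the last probe of *PAOX* differed more between the mock arrays than the other 11 probes did.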
